A study of Mus musculus with 4 samples.

Results

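Genes that are read as markers of small peritoneal macrophages and of other monocyte-derived cells of the peritoneal cavity were followed through the RNA-seq of mouse peritoneal macrophages. The list, *Retnla*, *Fn1*, *Irf4*, *Cd226*, *Lyz1*, *Mgl2*, *Clec10a*, *Cd209a*, *Ear2* and *Folr2*, was fixed by name, and all 10 genes were among the 15298 genes measured. The cells were CD11b+ F4/80+ Ly6G- cells, sorted by flow cytometry from the peritoneal fluid of 6-week-old female BALB/c mice. There were 4 libraries, 1 per condition, from control mice and mice given microcurrent stimulation (MCS), each at Zeitgeber Time (ZT) 2 and at ZT14, which is 12 h later. They are named Cont_ZT2, Cont_ZT14, MCS_ZT2 and MCS_ZT14 below. MCS mice received a pulsed current across the abdomen for 15 min at ZT2, so that MCS_ZT2 shows cells directly after the current. Control mice, labelled as not treated, went through the same anesthesia and pads without current according to the methods. The sources used here do not give how many mice were pooled in a library.

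The peritoneal cavity of a mouse holds at least a pair of macrophage populations. Large peritoneal macrophages are long-lived, carry much F4/80 and depend on the transcription factor GATA6. Small peritoneal macrophages carry little F4/80 and much MHC class II, are replaced from blood monocytes and depend on IRF4. Cells that pass from the second state to the first express RELMα, the product of *Retnla*, together with CD206 and lectins. *Folr2* marks a further resident macrophage type with LYVE1 in many tissues. A sort on F4/80 takes in mainly large peritoneal macrophages, and the bulk libraries hold the RNA of all sorted cells together. In such libraries fewer cells of a type and less RNA per cell cannot be told apart.

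Values are CPM (read counts scaled to a common library size by the authors with edgeR), and in these libraries 1 read equaled between 0.102 and 0.116 CPM at 8365590 to 9953243 recovered reads. Log2 ratios were taken after adding 0.1 CPM. The 95% counting interval given with a ratio is an exact binomial interval on the reads and covers counting error only. With 1 library per condition no value has a replicate check. As a yardstick for spread beyond counting, a wider 95% interval adds the common dispersion that edgeR estimated over all genes. It is a biological coefficient of variation of 0.140 that rests on 1 residual degree of freedom. The fit had additive terms for time and MCS, so this residual is the difference between the MCS ratios at ZT2 and ZT14. The wider interval therefore does not measure the spread between mice. Defining markers of macrophages were present, with *Adgre1* (F4/80) between 1086 and 1900 CPM and *Gata6* between 69.1 and 117 CPM.

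All 10 genes were above 1 CPM in every library. The lowest value was 7.80 CPM, 71 reads, for *Ear2* in Cont_ZT14. The 10 genes took 6.36% of the CPM in Cont_ZT2, 5.79% in Cont_ZT14, 6.03% in MCS_ZT2 and 6.01% in MCS_ZT14, nearly all of it from *Fn1*. *Fn1*, which encodes the matrix protein fibronectin, was the most abundant gene of all in MCS_ZT2 and ranked 2 in the other libraries. Which of the sorted cells held this RNA was not tested, and its level cannot be assigned to small peritoneal macrophages. *Fn1* stays in the counts over the 10 genes below.

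Genes can be compared with each other only per length, here as CPM per kb of the longest GENCODE transcript. On this scale *Fn1* had 6801 to 7402 CPM per kb over the 4 libraries. *Lyz1*, which encodes the lysozyme P isoform, followed at 1004 to 1500, and *Retnla*, which encodes the secreted protein RELMα (FIZZ1), at 398 to 682 CPM per kb. *Irf4*, the transcription factor on which small peritoneal macrophages depend, lay at 22.6 to 30.2 CPM per kb. *Cd209a*, *Clec10a*, *Ear2*, *Mgl2* and *Folr2* had means between 10.4 and 17.2 CPM per kb. Their ranges overlapped with each other, except that *Clec10a*, at 15.04 CPM per kb or more, lay just above *Ear2*, which reached 15.01, and above *Folr2*, which reached 14.1. *Cd226*, an adhesion and costimulatory receptor often used to gate small peritoneal macrophages, was lowest at 3.57 to 4.42 CPM per kb. Gene positions given with the genes below are those of the same annotation on GRCm38. The ranges of *Fn1*, *Lyz1*, *Retnla* and *Cd226* overlapped with no other of the 10 genes.

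**Figure D1:**
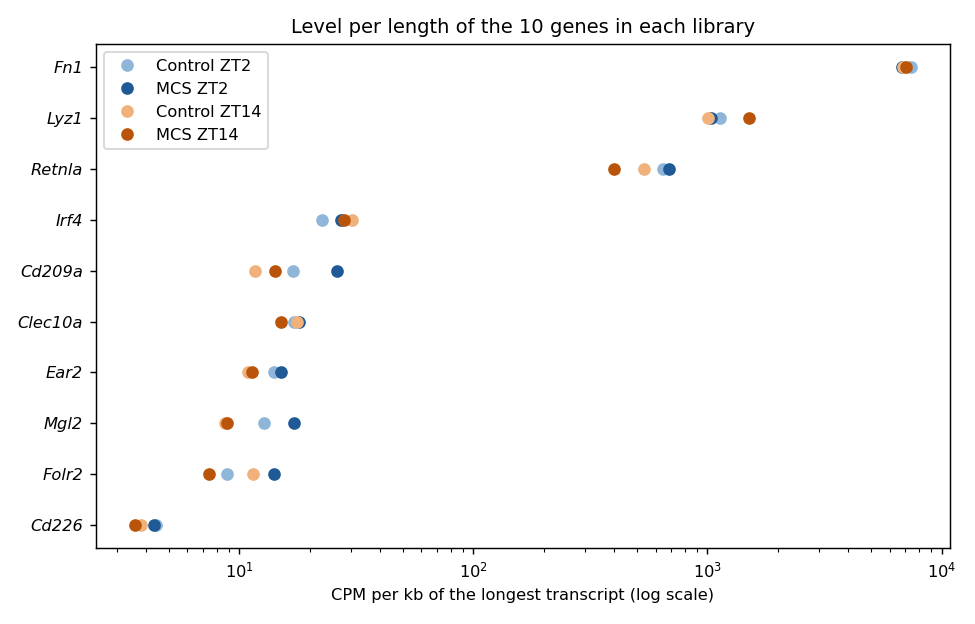
CPM per kb of the longest transcript (x axis, log scale) of each of the 10 genes (y axis), with 1 point per library. *Fn1*, *Lyz1* and *Retnla* stand above 398 CPM per kb in every library, and the other 7 genes reach at most 30.2.

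In none of the 4 comparisons did any of the 10 pass a log2 ratio of 1 in either direction. The study selected genes that varied with MCS at ZT14 by this threshold or by a stricter one. Here the looser threshold, with a log2 mean above 0 as the minimum, was applied to all 4 comparisons. Of all genes above that minimum, 3.4% passed for MCS against control at ZT14, 2.21% for MCS against control at ZT2, 3.61% for ZT2 against ZT14 in control and 5.83% for ZT2 against ZT14 in MCS. The largest range over the 4 libraries was that of *Cd209a*, whose value in MCS_ZT2 was 2.24 times that in Cont_ZT14, and the smallest was that of *Fn1*, at 1.09 times. The highest value of 6 of the 10 genes (*Retnla*, *Mgl2*, *Clec10a*, *Cd209a*, *Ear2* and *Folr2*) was in MCS_ZT2, where 25.7% of all genes had theirs.

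**Figure D2:**
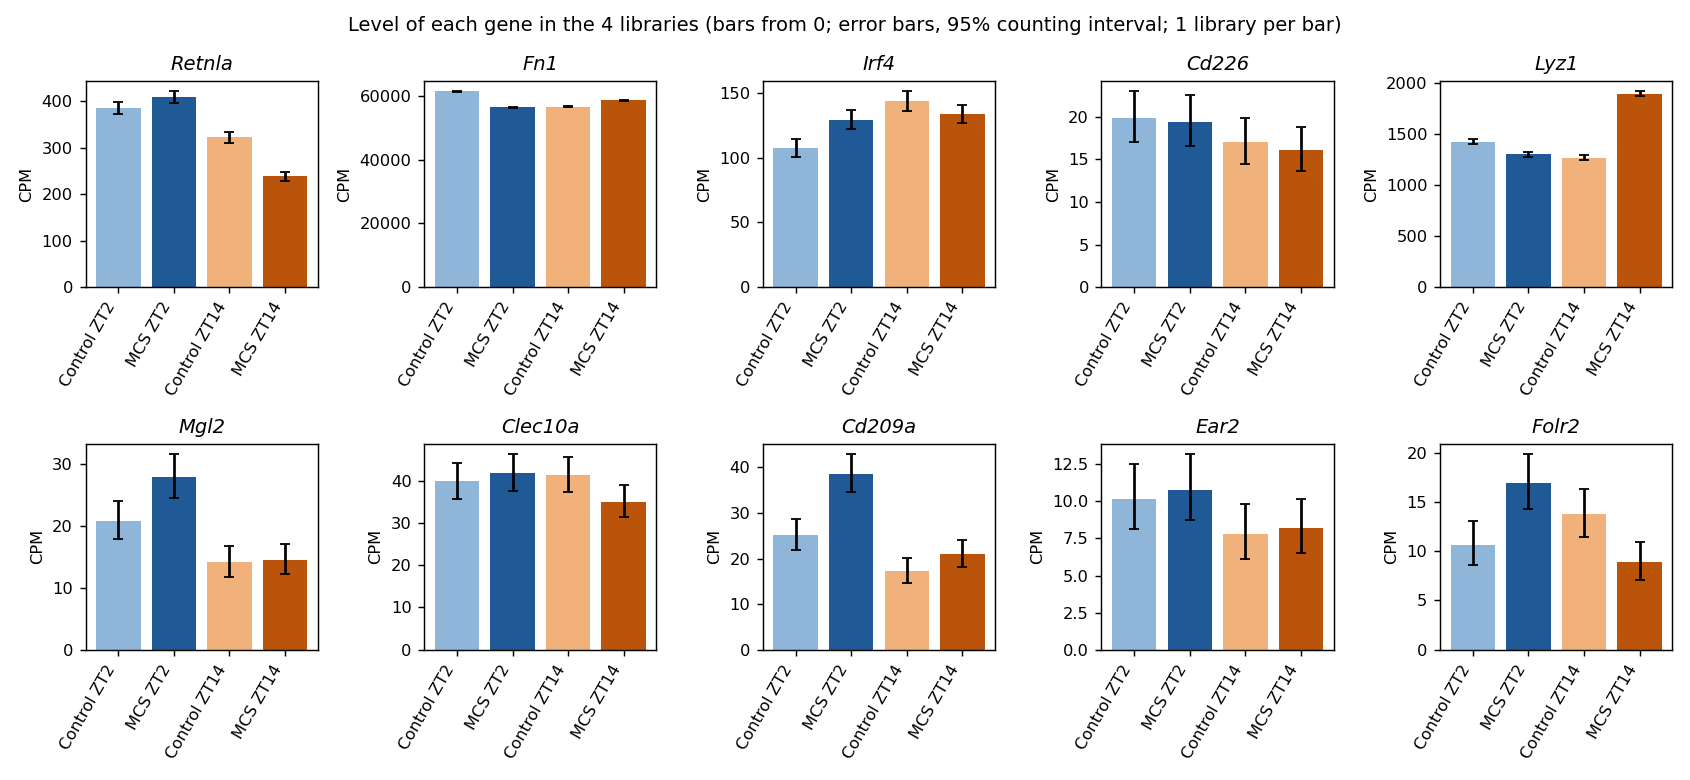
CPM (y axis, from 0) of each of the 10 genes in control and MCS at ZT2 and ZT14 (x axis). Bars are single libraries and error bars are 95% Poisson counting intervals. *Mgl2* and *Cd209a* stand highest in MCS_ZT2, at 28.0 and 38.6 CPM, and *Lyz1* in MCS_ZT14, at 1894 CPM.

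*Retnla*, *Mgl2* and *Cd209a* were higher at ZT2 than at ZT14 both in control and in MCS, beyond counting error each time. *Retnla* (chr16:48842551-48844461, plus strand) had 385 CPM in Cont_ZT2, 408 CPM in MCS_ZT2, 322 CPM in Cont_ZT14 and 239 CPM in MCS_ZT14. Both values at ZT2 lay above both at ZT14, and MCS_ZT14 was the lowest. The log2 ratio of ZT2 to ZT14 was 0.26 in control (95% counting interval 0.19 to 0.33) and 0.78 in MCS (0.70 to 0.85), a 1.20-fold and a 1.71-fold difference. The log2 ratio of MCS to control was 0.08 at ZT2 (0.02 to 0.15) and -0.43 at ZT14 (-0.51 to -0.35).

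*Mgl2* encodes the galactose-type lectin CD301b, found on IL-4-activated macrophages and on some dendritic cells. It had 20.8 CPM in Cont_ZT2 and 28.0 CPM in MCS_ZT2, and 14.2 CPM in Cont_ZT14 and 14.5 CPM in MCS_ZT14. The values at ZT14 nearly coincided, whereas those at ZT2 differed by a log2 ratio of MCS to control of 0.43 (0.14 to 0.71). Its log2 ratio of ZT2 to ZT14 was 0.55 in control (0.22 to 0.89) and 0.94 in MCS (0.64 to 1.25), the highest among the 10 genes in both comparisons. Its counting interval overlapped those of *Retnla*, *Cd209a* and *Ear2* in both, of *Cd226* in control and of *Folr2* in MCS.

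*Cd209a*, a DC-SIGN homolog expressed by monocyte-derived dendritic cells and small peritoneal macrophages (chr8:3743397-3748984, minus strand), followed the same order as *Mgl2*. It had 25.1 CPM in Cont_ZT2 and 38.6 CPM in MCS_ZT2, and 17.2 CPM in Cont_ZT14 and 21.0 CPM in MCS_ZT14. MCS was above control at both times, with a log2 ratio of 0.62 at ZT2 (0.37 to 0.88) and 0.28 at ZT14 (-0.03 to 0.59), the latter within counting error and reversed, to -0.24, when *Cd209a* was summed with its gene family. At ZT2 it was the only one of the 10 genes whose wider interval for MCS against control excluded no change (0.01 to 1.24), as for 2.58% of all genes. *Mgl2* and *Cd209a* differed by 0.113 (root mean square of log2 values centered over the 4 libraries), which put them among the most similar pairs of the 10 genes.

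The promoters of these 3 genes are shown because the genes were higher at ZT2 in both treatments. Sequences run from 250 bases before to 50 bases after the start of the RefSeq gene in GRCm38.p6, the build that the submitters name as mm10, and come from the reference strain rather than BALB/c. *Retnla* lies on chromosome 16 (chr16:48842359-48842658, plus strand), *Mgl2* on chromosome 11 (chr11:70130107-70130406, plus strand) and *Cd209a* on chromosome 8 (chr8:3748935-3749234, minus strand). Capitals mark matches on either strand to TTC and GAA set 4 bases apart, the motif bound by STAT6, and to GAGGAA, the core bound by PU.1.
Retnla: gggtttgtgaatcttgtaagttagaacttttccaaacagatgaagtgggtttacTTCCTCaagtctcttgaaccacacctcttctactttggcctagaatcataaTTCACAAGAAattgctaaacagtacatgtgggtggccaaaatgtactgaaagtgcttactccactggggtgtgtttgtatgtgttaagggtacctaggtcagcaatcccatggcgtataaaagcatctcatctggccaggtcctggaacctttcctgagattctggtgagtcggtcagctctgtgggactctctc
Mgl2: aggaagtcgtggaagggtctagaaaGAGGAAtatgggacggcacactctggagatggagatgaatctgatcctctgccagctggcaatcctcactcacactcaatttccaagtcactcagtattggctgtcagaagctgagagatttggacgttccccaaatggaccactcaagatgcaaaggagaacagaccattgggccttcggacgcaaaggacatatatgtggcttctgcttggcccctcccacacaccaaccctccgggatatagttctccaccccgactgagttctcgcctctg
Cd209a: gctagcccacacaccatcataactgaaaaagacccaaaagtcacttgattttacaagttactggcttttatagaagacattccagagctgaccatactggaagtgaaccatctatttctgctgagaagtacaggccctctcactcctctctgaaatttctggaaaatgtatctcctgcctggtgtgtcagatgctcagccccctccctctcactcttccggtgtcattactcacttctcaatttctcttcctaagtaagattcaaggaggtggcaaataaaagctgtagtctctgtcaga
The STAT6 letters start 145 bases before the start of *Retnla*, apart from the PU.1 letters there. Of the 7 members with a promoter sequence, no other holds them. Over all 32851 promoter windows 6.95% hold them. The PU.1 core occurs in the windows of *Retnla*, *Mgl2* and *Irf4* and in 28.3% of all windows. Neither an IRF motif (GAAA repeated after 2 bases, in 3.44% of all windows) nor an E-box (CACGTG, in 7.15%) was found in a window of the 7 genes. A match is a run of letters and not a shown binding site.

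*Clec10a* encodes CD301a, the close relative of CD301b, and lies 18646 bases downstream of *Mgl2* on chromosome 11 (chr11:70156197-70170834; *Mgl2* at chr11:70130329-70137550, both on the plus strand). Unlike its neighbor it varied little. It had 39.8 CPM in Cont_ZT2 and 41.9 CPM in MCS_ZT2, and 41.3 CPM in Cont_ZT14 and 35.1 CPM in MCS_ZT14. Only MCS_ZT14, the lowest library, differed beyond counting error, with a log2 ratio to control of -0.24 (-0.45 to -0.02) and a log2 ratio of ZT2 to ZT14 in MCS of 0.26 (0.04 to 0.47). The transcripts share little sequence. Of the 150-base windows of the longest *Mgl2* transcript, 2.29% also occur in *Clec10a*.

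*Folr2*, which encodes folate receptor beta (chr7:101839988-101857194, minus strand), had the largest difference between the MCS ratios at ZT2 and ZT14. It had 10.6 CPM in Cont_ZT2 and 16.9 CPM in MCS_ZT2, and 13.7 CPM in Cont_ZT14 and 8.90 CPM in MCS_ZT14. MCS was thus above control at ZT2 and below it at ZT14, and the values rested on 87 to 146 reads per library. The log2 ratio of MCS to control was 0.67 at ZT2 (0.29 to 1.07) and -0.62 at ZT14 (-1.04 to -0.22). The ratio of ZT2 to ZT14 was 0.92 in MCS (0.54 to 1.33), but -0.37 in control (-0.77 to 0.03), where it was within counting error.

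*Lyz1*, one of a pair of mouse lysozyme genes (chr10:117287797-117292868, minus strand), was highest in MCS_ZT14. It had 1425 CPM in Cont_ZT2 and 1302 CPM in MCS_ZT2, and 1268 CPM in Cont_ZT14 and 1894 CPM in MCS_ZT14. The first 3 libraries lay close together and MCS_ZT14 above them. At ZT14 the log2 ratio of MCS to control was 0.58 (0.55 to 0.61), and this was the only one of the 10 genes whose wider interval excluded no change in that comparison (0.02 to 1.14), as for 6.57% of all genes. *Lyz2*, the lysozyme M gene of the myeloid lineage, had 17454, 17605, 17344 and 18847 CPM in the order Cont_ZT2, Cont_ZT14, MCS_ZT2 and MCS_ZT14. At ZT14 MCS was 0.10 above control in *Lyz2* on the log2 scale. The sum of *Lyz1* and *Lyz2* had a log2 ratio of 0.14. None of the 150-base windows of the longest *Lyz1* transcript occurs in another gene of the annotation.

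*Irf4* (chr13:30749226-30766976, plus strand) was lowest in Cont_ZT2, at 108 CPM, against 129 CPM in MCS_ZT2, 144 CPM in Cont_ZT14 and 134 CPM in MCS_ZT14. It was the only one of the 10 genes with both values at ZT2 below both at ZT14, as for 21.3% of all genes. The log2 ratio of ZT2 to ZT14 was -0.42 in control (-0.54 to -0.30) and -0.05 in MCS (-0.16 to 0.07). That of MCS to control was 0.27 at ZT2 (0.14 to 0.39) and -0.10 at ZT14 (-0.22 to 0.01). *Irf8*, which encodes a related factor of monocytes and dendritic cells, was also lowest in Cont_ZT2 and highest in Cont_ZT14, at 74.5 and 141 CPM. *Irf4* is expressed in B cells as well, and the summed level of 7 B cell genes was also highest in Cont_ZT14, at 1336 CPM against 956 to 1093 CPM in the other libraries. The part of B cells in the level of *Irf4* was not tested.

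*Cd226* and *Ear2* stayed within counting error, and *Fn1* varied least. *Cd226* had 19.9 and 19.4 CPM at ZT2 and 17.0 and 16.1 CPM at ZT14 (control, then MCS), and none of its 4 counting intervals excluded no change. *Ear2*, which encodes a ribonuclease of nonclassical monocytes and eosinophils (chr14:44102654-44103534, plus strand), had 10.2 and 10.8 CPM at ZT2 and 7.80 and 8.18 CPM at ZT14, likewise without an interval that excluded no change. Its log2 ratio of ZT2 to ZT14 was 0.38 in control (-0.09 to 0.85) and 0.40 in MCS (-0.05 to 0.85). Of the 150-base windows of its longest transcript, 6.32% occur in the related gene *Ear10*, so its reads are less certain. Summed over 6 genes, nonclassical monocyte markers were at 163, 164, 187 and 153 CPM in Cont_ZT2, Cont_ZT14, MCS_ZT2 and MCS_ZT14. Of the 3 eosinophil genes measured, *Siglecf* was at 1.27, 0.659, 5.80 and 14.1 CPM and *Ccr3* at 5.31, 1.32, 12.2 and 33.8 CPM in the same order, both highest in MCS_ZT14. The other, *Il5ra*, was at 51.0, 48.9, 49.1 and 33.9 CPM and lowest in MCS_ZT14. The part of these cells in the level of *Ear2* was not tested. *Fn1* (chr1:71585520-71653200, minus strand) had 61551 CPM in Cont_ZT2 and 56553 CPM in MCS_ZT2, and 56779 CPM in Cont_ZT14 and 58797 CPM in MCS_ZT14. Its log2 ratios lay between -0.12 and 0.12. With at least 487494 reads behind each value, their counting intervals excluded no change, whereas every wider interval included it.

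Directly after the current, MCS was above control for 7 of the 10 genes, against 50.6% of all genes. At ZT2 the counting interval excluded no change for 7 of the 10 genes, against 22.5% of all genes. *Retnla*, *Irf4*, *Mgl2*, *Cd209a* and *Folr2* were higher with MCS (11.5% of all genes) and *Fn1* and *Lyz1* were lower (11%). The median log2 ratio over all 10 was 0.08. At ZT14 the direction was split, with 5 genes above control, as for 50.4% of all genes, and 5 below. The interval excluded no change for 5 genes, against 37.6% of all genes, with *Lyz1* and *Fn1* higher (18.7% of all genes) and *Retnla*, *Clec10a* and *Folr2* lower with MCS (18.9%). The median was -0.02. Over all genes above the minimum, the median was within 0.01 of 0 in each comparison. How often an interval excludes no change depends on the reads of a gene, which run from 71 for *Ear2* to 575019 for *Fn1* among the 10 genes.

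**Figure D3:**
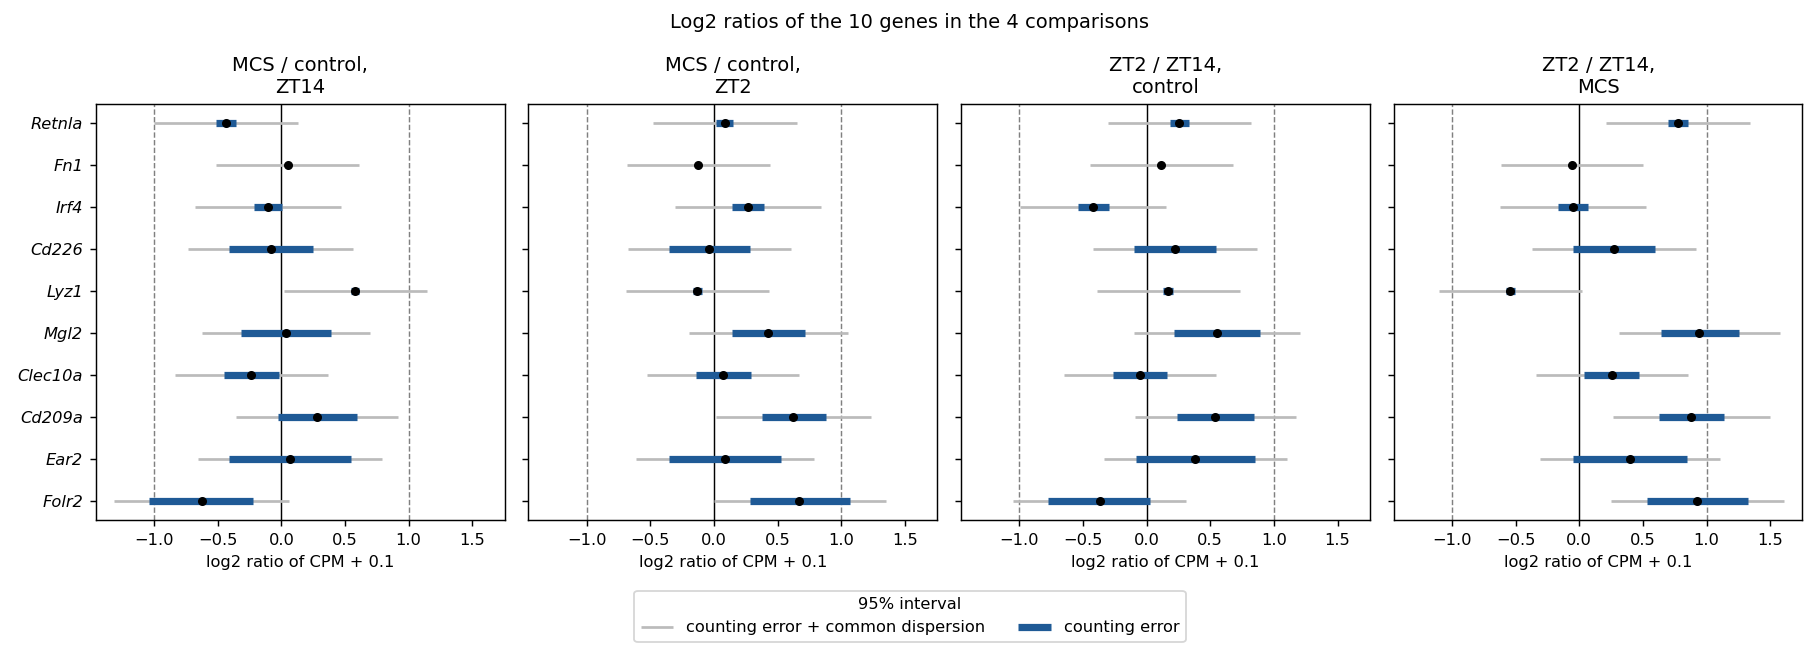
Log2 ratio of CPM + 0.1 (x axis) of the 10 genes (y axis) in the 4 comparisons, 1 panel each. Points are ratios of single libraries, thick lines 95% counting intervals and thin lines intervals that add the common dispersion; dashed lines mark a log2 ratio of 1 in either direction, which no point passes.

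Between the times of day, 7 of the 10 genes were higher at ZT2 in control, against 49.5% of all genes, and 7 in MCS, against 50.6%. In control the counting interval excluded no change for 6 genes, against 29.5% of all genes. *Retnla*, *Fn1*, *Lyz1*, *Mgl2* and *Cd209a* were higher at ZT2 (13.6% of all genes) and *Irf4* was lower (15.9%). No wider interval excluded no change in control, where 6.01% of all genes did. In MCS the counting interval excluded no change for 7 genes, against 44% of all genes, with *Retnla*, *Mgl2*, *Clec10a*, *Cd209a* and *Folr2* higher at ZT2 (21.9% of all genes) and *Fn1* and *Lyz1* lower (22.2%). Here the wider interval excluded no change for 4 genes, against 11.6% of all genes. Its lower bound was 0.21 for *Retnla*, 0.31 for *Mgl2*, 0.27 for *Cd209a* and 0.25 for *Folr2*. The median log2 ratio was 0.20 in control and 0.33 in MCS. For *Retnla*, *Cd226*, *Mgl2*, *Cd209a* and *Ear2*, 5 of the 10 genes, both libraries at ZT2 were above both at ZT14, as for 21.3% of all genes. For none of the 10 were both MCS libraries on the same side of both controls, where 11.1% of all genes were above and 11.4% below.

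The ratio of MCS to control differed between ZT14 and ZT2 beyond counting error for 6 of the 10 genes, against 37.1% of all genes. The difference, ZT14 minus ZT2 on the log2 scale, was -1.30 for *Folr2* (95% counting interval -1.84 to -0.75), -0.52 for *Retnla* (-0.62 to -0.41), -0.37 for *Irf4* (-0.54 to -0.20) and -0.31 for *Clec10a* (-0.61 to -0.01). It was 0.71 for *Lyz1* (0.66 to 0.76) and 0.17 for *Fn1*. The wider interval excluded no difference for *Folr2* alone (-2.26 to -0.34), as for 5.78% of all genes. Its dispersion was estimated from these same differences over all genes, so it is no independent check of them. By sign alone, 4 of the 10 genes (*Retnla*, *Irf4*, *Clec10a* and *Folr2*) were higher with MCS at ZT2 and lower at ZT14, against 29.6% of all genes, and *Fn1* and *Lyz1* were the reverse, against 29.5%. Beyond counting error at each time, *Retnla* and *Folr2* were higher at ZT2 and lower at ZT14, against 4.86% of all genes, and *Fn1* and *Lyz1* were the reverse, against 5.29%. *Mgl2*, *Cd209a* and *Ear2* were above control at both times and *Cd226* below. For *Mgl2* and *Cd209a* the difference was -0.39 (-0.83 to 0.05) and -0.34 (-0.73 to 0.05).

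**Figure D4:**
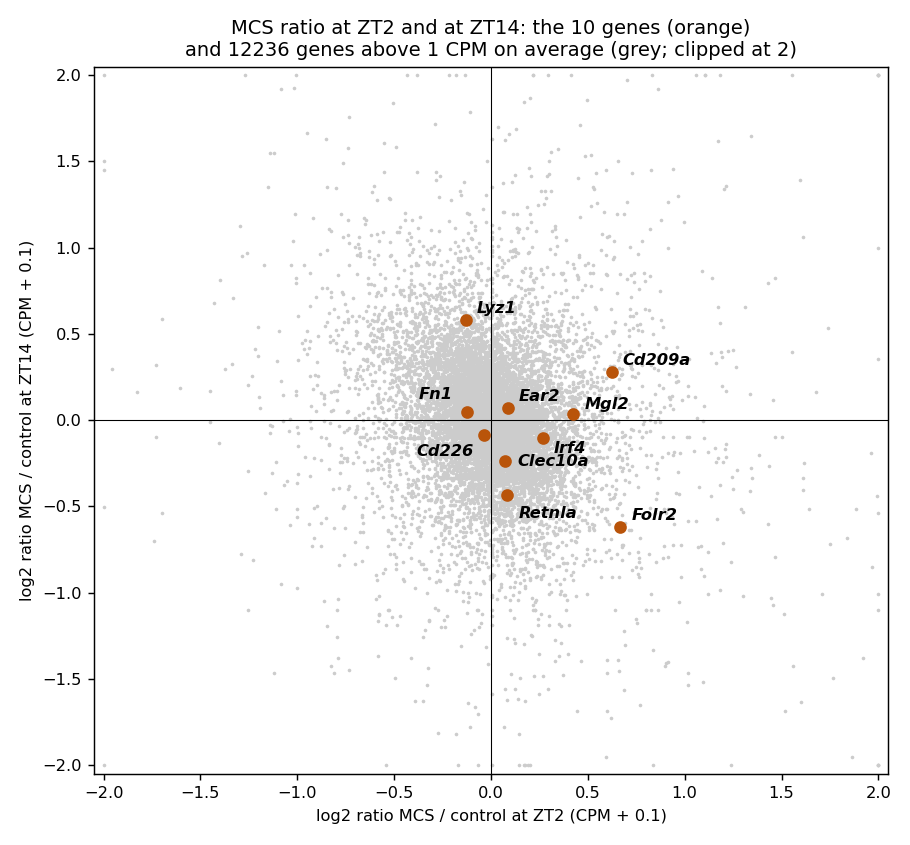
Log2 ratio of MCS to control at ZT2 (x axis) against that at ZT14 (y axis), with the 10 genes in orange and all genes above the minimum expression in grey. *Folr2* lies at 0.67 and -0.62 and *Lyz1* at -0.13 and 0.58, whereas *Cd209a* lies to the upper right at 0.62 and 0.28.

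A count test over the 4 libraries, edgeR's quasi-likelihood test with additive terms for time and MCS on the recovered reads, called none of the 10 genes at an adjusted threshold of 0.05. It called 0.185% of 12404 genes for MCS and 2.18% for time. Without adjustment, 1 of the 10 genes passed 0.05 for MCS and 3 for time, against 2.41% and 10.2% of all genes. The nearest to the threshold for time in edgeR were *Mgl2*, with a log2 ratio of ZT2 to ZT14 of 0.75 and an adjusted p of 0.0607, and *Cd209a*, with 0.72 and an adjusted p of 0.063. *Retnla* had 0.52 and an adjusted p of 0.205 in the same edgeR fit. For MCS the lowest unadjusted p in edgeR was 0.0325 for *Cd209a*, at a log2 ratio of 0.46, and it was not called after adjustment. The additive fit takes the MCS effect to be equal at ZT2 and ZT14, which the values of *Folr2* and *Lyz1* do not show.

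Most of the other genes of small peritoneal macrophages and MHC class II were also higher with MCS at ZT2. There 9 of these 11 genes were higher, against 50.6% of all genes, and 7 were higher beyond counting error, against 11.5%. None was past a log2 ratio of 1, and their median log2 ratio was 0.14. Here too, passing counting error depends on the reads of a gene. *Cd74*, the invariant chain, had 2142 CPM in Cont_ZT2 and 2438 CPM in MCS_ZT2, a log2 ratio of 0.19 (0.16 to 0.21). *H2-Ab1*, a chain of the MHC class II molecule, had 577 and 738 CPM, a log2 ratio of 0.36 (0.30 to 0.41). *Itgax*, which encodes CD11c, had 11.9 and 22.2 CPM, a log2 ratio of 0.89 (0.54 to 1.26), and at ZT14 11.8 and 7.06 CPM. It alone of the 11 passed 1 on this scale in a comparison, at 1.64 for ZT2 against ZT14 in MCS. *Ccr2*, the chemokine receptor by which monocytes leave the bone marrow, had 179 and 234 CPM at ZT2, a log2 ratio of 0.39 (0.29 to 0.48). At ZT14, 7 of the 11 genes were higher and 4 lower with MCS, with a median of 0.09.

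Most markers of large peritoneal macrophages were lower with MCS at ZT2. Of 12 genes, 10 were lower, all 10 beyond counting error, against 11% of all genes, and the median was -0.16 on the log2 scale. At ZT14 the list was split, with a median of 0.09. Of the 12 genes, 8 were higher, all 8 beyond counting error, against 18.7% of all genes. The other 4 were lower, 3 of them beyond counting error, against 18.9% of all genes. These 3 were *Prg4*, *Tgfb2* and *Vsig4*, with log2 ratios of -0.25, -0.28 and -0.19. Most of the 12 genes have many reads, so that small shifts pass counting error, and the wider interval is not given for them. *Adgre1* had 1327 CPM in Cont_ZT2 and 1086 CPM in MCS_ZT2, and 1361 and 1900 CPM at ZT14. *Alox15*, a lipoxygenase of resident peritoneal macrophages, had 4015 and 3607 CPM at ZT2 and 3712 and 5532 CPM at ZT14. Its log2 ratios of MCS to control were -0.15 at ZT2 and 0.58 at ZT14, close to the -0.13 and 0.58 of *Lyz1*. The part of large peritoneal macrophages in the level of *Lyz1* was not tested. *Gata6* was higher with MCS at both times, with log2 ratios of 0.23 and 0.40. None of the 12 passed a log2 ratio of 1 in any comparison. Their summed level was lowest in MCS_ZT2 and highest in MCS_ZT14, at 13246 and 16497 CPM, whereas *Folr2* was highest in the former and lowest in the latter.

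Genes of resident macrophages with folate receptor beta were lower with MCS at ZT14 for 5 of 7 genes. Of these, 4 were lower beyond counting error, against 18.9% of all genes, and the median of the list was -0.47 on the log2 scale. *Lyve1* had 30.9 CPM in Cont_ZT14 and 12.5 CPM in MCS_ZT14, a log2 ratio of -1.30, and *Gas6* had 2.86 and 0.920 CPM. *Cd163*, the hemoglobin scavenger receptor, had 27.4 and 19.7 CPM, and *Mrc1*, which encodes CD206, 97.3 and 110 CPM. At ZT2 4 of the 7 were higher with MCS and 3 lower, with a median of 0.12. *F13a1*, a coagulation factor gene of monocytes and of these macrophages, had 87.0 and 184 CPM at ZT2 and 148 and 89.5 CPM at ZT14 (control, then MCS), log2 ratios of 1.08 (0.96 to 1.21) and -0.73 (-0.85 to -0.61). Its order over the 4 libraries was that of *Folr2*, except that Cont_ZT2 rather than MCS_ZT14 was the lowest.

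Classical monocytes were represented by few reads of their defining gene. *Ly6c2* had 3.12, 0.879, 4.52 and 0.307 CPM in Cont_ZT2, Cont_ZT14, MCS_ZT2 and MCS_ZT14, and *Chil3* was between 0.462 and 1.39 CPM. The summed level of 8 monocyte genes was 788 CPM in MCS_ZT2 and 606 to 625 CPM in the other libraries. The sum hides a split, since at ZT2 5 of the genes above the minimum were higher with MCS and 2, *Plac8* and *Vcan*, were lower. *F13a1* had 87.0 and 184 CPM and *Ccr2* 179 and 234 CPM at ZT2 (control, then MCS), and both are also named above with other cells. Conventional dendritic cell genes, which share *Cd209a* as a marker in other tissues, summed to 59.0 CPM in MCS_ZT2, 52.2 CPM in Cont_ZT2, 44.6 CPM in Cont_ZT14 and 44.5 CPM in MCS_ZT14. *Xcr1* and *Zbtb46* of that list were between 2.45 and 5.38 CPM.

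Mast cell genes had the same order over the libraries as *Retnla*. The sum of 6 mast cell genes was 2244 CPM in MCS_ZT2, 1821 CPM in Cont_ZT2, 1184 CPM in Cont_ZT14 and 954 CPM in MCS_ZT14. All 6 were higher at ZT2 beyond counting error in control, against 13.6% of all genes, and in MCS, against 21.9%. Neutrophil genes summed to 87.6 CPM in MCS_ZT2 against 10.7 to 18.7 CPM in the other libraries, and red blood cell genes to 36.4 CPM in MCS_ZT2 and 110 CPM in MCS_ZT14 against 3.23 and 1.32 CPM in control. T and natural killer cell genes summed to 24.3 to 51.5 CPM, and mesothelial and fibroblast genes to 6.04 to 28.0 CPM, both highest in MCS_ZT2. The part of these other cells in the levels of the 10 genes was not tested.

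**Figure D5:**
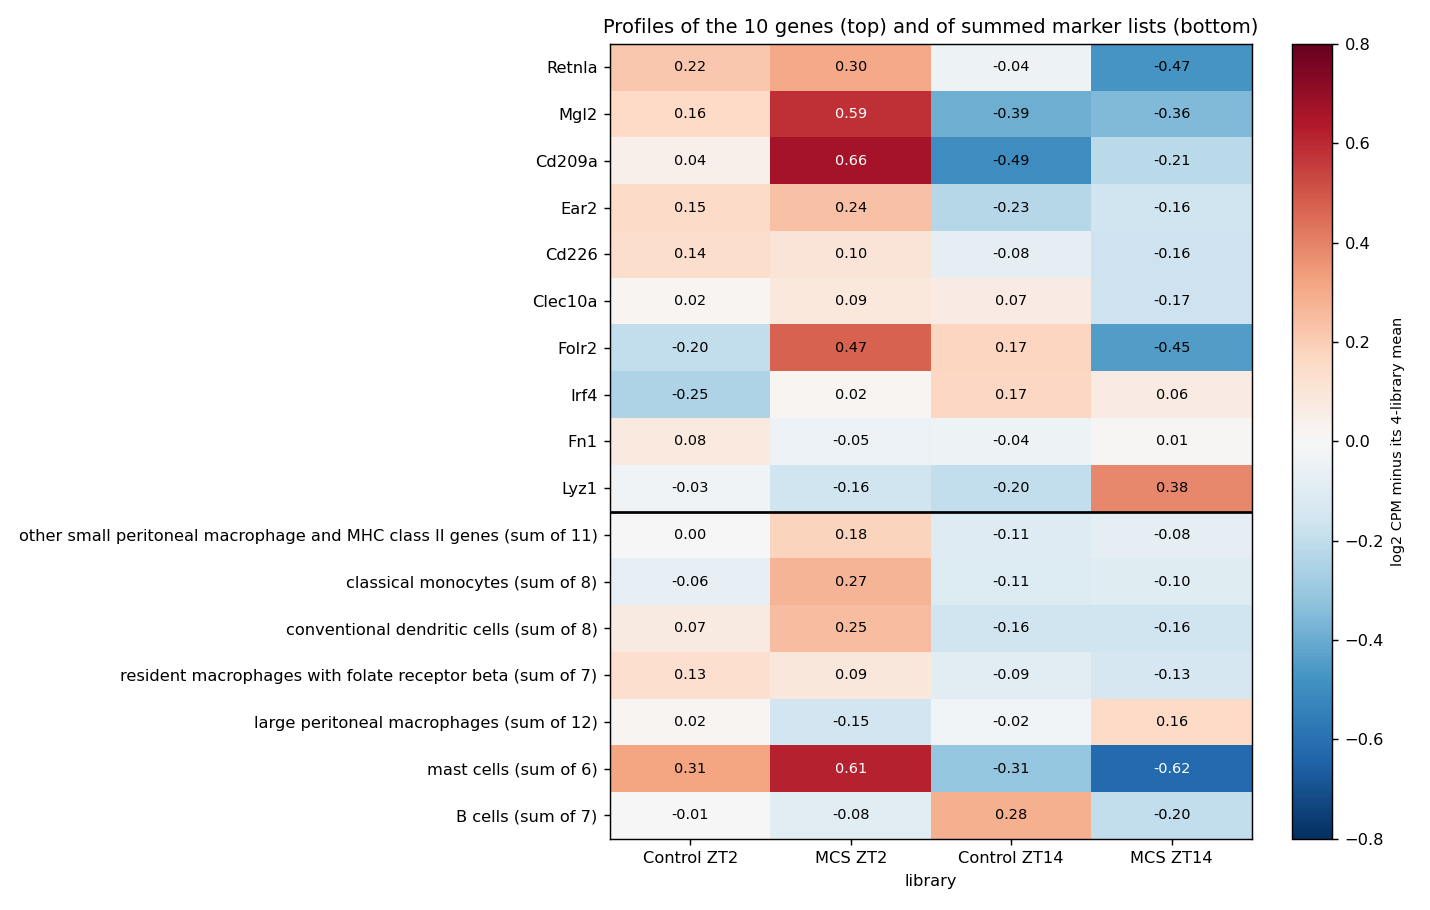
Log2 CPM of the 10 genes (upper rows) and log2 summed CPM of marker lists (lower rows) in each library, after subtraction of the mean over the 4 libraries. *Cd209a* and *Mgl2* reach 0.66 and 0.59 in MCS_ZT2, where mast cell genes reach 0.61 and large peritoneal macrophage genes are at -0.15.

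Genes tied to the 10 by function were compared in the same way. Of 15 genes of the IL-4 response, the pathway that induces *Retnla* and *Mgl2* through STAT6, 11 were above the minimum at ZT14 and 12 at ZT2. At ZT14 5 were higher and 6 lower with MCS, and at ZT2 7 were higher and 5 lower, with medians of -0.03 and 0.06. *Arg1*, an arginase of IL-4-activated macrophages, had 123 CPM in Cont_ZT14 and 171 CPM in MCS_ZT14, a log2 ratio of 0.47 (0.37 to 0.59), while *Retnla* was lower. *Il4ra* and *Stat6* had log2 ratios of 0.25 and -0.04 at ZT14. *Egr2*, a transcription factor of this response, was the only one of the list past a log2 ratio of 1 with MCS, at 9.56 CPM in Cont_ZT14 and 4.29 CPM in MCS_ZT14. Regulators and partners of IRF4 were higher with MCS for 6 of 10 genes at ZT14 and 8 of 10 at ZT2. Of all genes, 50.4% and 50.6% were higher. None of the list was past a log2 ratio of 1. Beyond counting error, 4 were higher and 4 lower at ZT14, against 18.7% and 18.9% of all genes. At ZT2, 2 were higher and 1 lower beyond counting error, against 11.5% and 11%. The 4 lower genes at ZT14 were *Ikzf1*, *Nfkb1*, *Irf8* and *Rel*. They had 281, 205, 141 and 58.2 CPM in control and 255, 168, 106 and 41.0 CPM in MCS. The higher ones included the receptor chains of GM-CSF, a cytokine that raises IRF4, *Csf2rb* with a log2 ratio of 0.34 and *Csf2ra* with 0.18. At ZT2 their log2 ratios were 0.06 and -0.04, both within counting error. *Irf4* itself was at 0.27 at ZT2 and -0.10 at ZT14.

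Of 7 fibronectin receptor genes, 6 were higher with MCS at ZT14 and 3 at ZT2, against 50.4% and 50.6% of all genes. None was past a log2 ratio of 1. At ZT14, 3 were higher beyond counting error, against 18.7% of all genes. At ZT2, 2 were higher and 1 lower beyond counting error, against 11.5% and 11%. *Itgb1*, the common chain of these integrins, had 1286 and 1178 CPM at ZT2 and 1186 and 1461 CPM at ZT14 (control, then MCS). *Itga4* went the other way, at 849 and 906 CPM at ZT2 and 779 and 755 CPM at ZT14. Of the ligands and partners of CD226, *Pvr* was between 13.2 and 16.3 CPM, *Cd96* between 1.33 and 2.32 CPM and *Tigit* below 1 CPM. Of the 5 folate transport genes measured, 4 were higher with MCS at ZT14, 3 of them beyond counting error, against 18.7% of all genes. Their median log2 ratio was 0.53, whereas *Folr2* was lower. *Ggh*, which cleaves stored folate in the lysosome, had 23.5 CPM in Cont_ZT14 and 34.8 CPM in MCS_ZT14. Of the relatives of *Cd209a*, *Cd209b* had 53.0, 72.3, 63.0 and 53.4 CPM and *Cd209c* 26.1, 22.5, 34.1 and 20.9 CPM in Cont_ZT2, Cont_ZT14, MCS_ZT2 and MCS_ZT14. Thus *Cd209b* was highest in Cont_ZT14, where *Cd209a* was lowest.

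The genes whose profile over the 4 libraries was most like that of a member were sought among 9209 genes with a log2 mean above 3. For *Cd209a* they were *Siglece*, *Il1rl1* and *Ms4a4c*, with root mean square differences of 0.0506, 0.0951 and 0.102 on the log2 scale. *Il1rl1*, the receptor for IL-33, had 106, 79.2, 147 and 88.8 CPM in Cont_ZT2, Cont_ZT14, MCS_ZT2 and MCS_ZT14. For *Mgl2* they were *Pag1*, *Atp2b4* and *Ms4a2*, the last the beta chain of the IgE receptor, with differences of 0.0485 to 0.0510. For *Lyz1* they were *Sec11c*, *Sf3b5* and *Myl6*, and for *Folr2* *4931406H21Rik*, *Kcna3* and *Mrvi1*. With 4 libraries many genes share a profile, and these are named by closeness alone.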

How the data were processed

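According to the methods and the submitters' processing notes, the authors trimmed reads with Trimmomatic 0.38, estimated counts per gene with RSEM 1.3.0 and Bowtie 2 on mm10, and deposited CPM normalized by edgeR. The annotation and the expression filter are not given in the sources used here.

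Whole reads were recovered by dividing each column by its smallest step, which left 100% of values within 0.05 of a whole read. Estimated counts may be fractional, and rounding by the authors then enters these reads. Log2 ratios used a pseudocount of 0.1 CPM and understate changes of low genes. A gene without reads could be present at up to 3 reads, 0.307 to 0.348 CPM. Counting intervals are exact conditional binomial intervals at 95%. The count test used genes with at least 40 reads in total. The ratios and the count test were tested on simulated data. Differences of ratios used a normal interval from the 4 read counts. Positions and transcript lengths came from GENCODE M21 and promoters from RefSeq, both for GRCm38.

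The 10 genes and all lists were chosen with earlier results of these data known. The rule for naming genes took the 10 members, the most abundant of each list and those past a log2 ratio of 1. It also took the 3 nearest profiles of members with a mean of at least 10 CPM. Not every gene under this rule is named, and nearest profiles are given only for *Cd209a*, *Mgl2*, *Lyz1* and *Folr2*. *Irf8*, *F13a1* and other list genes outside this rule were picked after their values were seen. Alternatives were pseudocounts of 1 and 0.01 CPM, rescaling to a median ratio of 1 or by TMM, other minimum expressions and sums over gene families. The wider interval was added after the data were seen. Tools were R 4.3.3 with edgeR 4.0.16, and scipy 1.17.1, pandas 2.3.3, numpy 2.4.6 and matplotlib 3.10.9 under Python 3.11.15.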

Additional observations from a re-analysis of the deposited data

Results flagged for a closer look

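For 4 of the 10 genes the ratio of MCS to control pointed in opposite directions at ZT2 and ZT14, beyond counting error at each time. Of all genes, 4.86% did so with MCS higher at ZT2 and 5.29% with MCS higher at ZT14. The difference of the log2 ratios, ZT14 minus ZT2, was -1.30 for *Folr2*, -0.52 for *Retnla*, 0.71 for *Lyz1* and 0.17 for *Fn1*. *Folr2* and *Retnla* were higher with MCS at ZT2 and lower at ZT14, and *Lyz1* and *Fn1* the reverse. With at least 487494 reads per library, *Fn1* passed counting error at log2 ratios of only -0.12 and 0.05. For none of the 4 genes did the wider interval exclude no change at both times. With 1 library per condition the differences between the MCS ratios were not tested against the spread between mice.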

How the results depend on the processing

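No member passed a log2 ratio of 1 with a pseudocount of 1 or 0.01 CPM or after rescaling to a median ratio of 1, and under each of these 3 settings the 40 ratios of single genes stayed within the counting interval. Recomputed TMM scaling returned the deposited values, and another minimum expression could not move the ratio of a single gene, so these settings say nothing about stability. Counted by intervals that exclude no change in place of the log2 threshold, the members for the MCS ratio were 5 at ZT14 and 7 at ZT2, and for the time ratio 6 in control and 7 with MCS. With the wider interval they were 1, 1, 0 and 4. Summed with its gene family, *Cd209a* reversed for the time ratio in control, to -0.11, since *Cd209b*, higher in Cont_ZT14 than in Cont_ZT2, is part of the sum. In the same way the MCS ratio at ZT14 turned to -0.24 for *Cd209a* and -0.17 for *Mgl2*, and the time ratio in control to 0.12 for *Clec10a*, each within counting error of no change for the gene alone. In all, 12 of the 24 sums stayed within the counting interval of the gene alone. No paired analysis was possible because each condition has 1 library. Depth limits *Ear2* and *Folr2* most, with 71 to 146 reads per library.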
